A study of Mus musculus with 3 samples.

Results

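Cycling bone stromal cells were the cells of mouse long bone that held transcripts of the cell division machinery together with transcripts of the bone mesenchyme. They were chosen by measured values in 3 droplet-based single-cell RNA sequencing libraries. A member had at least 5 unique molecular identifiers (UMIs, each standing for 1 captured transcript) of *Top2a*, *Mki67*, *Birc5*, *Cdk1* and *Ccnb2* added up (the cycle gate) and at least 5 UMIs of *Postn*, *Limch1*, *Kcnk2*, *Wif1* and *Alpl* added up (the stromal gate). It had at most 1 UMI of *Acan*, at most 1 of *Pecam1* and *Cdh5*, at most 1 of *Laptm5* and *Tyrobp*, and haemoglobin under 5% of its UMIs. This gave 263 of 15628 cells, of which 30 of 2382 lay in metaphyseal replicate 1, 17 of 2004 in metaphyseal replicate 2 and 216 of 11242 in the *Pdgfra-GFP* library. Triplets of values keep this order of libraries throughout.

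All mice were untreated males aged 3 weeks on the C57BL/6 background. The metaphyseal libraries held cells from dissected wild-type metaphyses of femur and tibia after magnetic depletion of lineage-positive, CD45+ and CD117+ haematopoietic cells. The *Pdgfra-GFP* library held GFP+ cells sorted from metaphysis and epiphysis of mice heterozygous for H2B-GFP knocked in at *Pdgfra*, so cells without reporter protein had been removed from it. It is 1 library, and the number of mice behind each library is not given in the sources used here, so the tests measure the spread between 3 libraries, which may be technical. The libraries held 25243314, 22082735 and 91747759 UMIs, and the cells had medians of 6257, 6426 and 5330 UMIs. The reference population, non-cycling stromal cells, passed the same stromal and exclusion gates with 0 UMIs of the 5 cycle genes and numbered 490, 416 and 3279. Cells with 1 to 4 cycle UMIs, 81, 71 and 464 in number, entered neither population. No member's barcode recurred among the cells of another library, although the *Pdgfra-GFP* library shared 9 and 10 cell barcodes with the metaphyseal ones.

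Dividing cells pass from growth (G1) through DNA replication (S) to a second gap (G2) and mitosis (M). Cyclins bound to cyclin-dependent kinases (CDKs) drive these steps, CDK inhibitors of the INK4 and CIP/KIP families hold them back, and the transcription factors E2F and B-MYB/FOXM1 switch on the replication genes and the mitotic genes in turn. Below the growth plate of a young bone, stromal cells divide and give rise to osteoblasts, the cells that lay down bone matrix, whereas marrow stromal cells that express *Cxcl12* and *Lepr* support blood formation and can become adipocytes.

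Promoter windows are shown for genes of the cycle gate and for *Pclaf*, because transcripts of these genes define the population or mark it. Each window runs from 250 bases before to 50 bases after the annotated start (RefSeq, GRCm38.p6) and is printed 5′ to 3′ on the strand of the gene. Capitals mark 3 kinds of short word on either strand, namely the cell cycle homology region (CHR, TTTGAA or TTCGAA) found in mitotic genes, the CCAAT box bound by NF-Y, and 4 forms of the E2F site (TTTGGCGC, TTTCGCGC, TTTCCCGC and TTTGCCGC). No word contains another.
*Top2a* (topoisomerase II alpha, chr11:99024140-99024439, minus strand): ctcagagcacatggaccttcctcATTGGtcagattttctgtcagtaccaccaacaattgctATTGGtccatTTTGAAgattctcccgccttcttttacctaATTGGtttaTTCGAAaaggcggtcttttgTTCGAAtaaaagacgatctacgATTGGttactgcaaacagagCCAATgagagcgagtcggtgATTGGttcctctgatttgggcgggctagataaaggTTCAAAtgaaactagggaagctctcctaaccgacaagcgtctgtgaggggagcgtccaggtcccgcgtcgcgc
*Mki67* (the proliferation antigen Ki-67, chr7:135716330-135716629, minus strand): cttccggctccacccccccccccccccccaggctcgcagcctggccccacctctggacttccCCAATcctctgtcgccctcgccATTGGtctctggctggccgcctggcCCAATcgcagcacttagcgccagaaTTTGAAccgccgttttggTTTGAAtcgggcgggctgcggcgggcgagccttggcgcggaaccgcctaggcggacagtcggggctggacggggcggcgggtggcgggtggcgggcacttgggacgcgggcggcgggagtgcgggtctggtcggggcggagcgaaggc
*Cdk1* (the kinase of mitotic entry, chr10:69352863-69353162, minus strand): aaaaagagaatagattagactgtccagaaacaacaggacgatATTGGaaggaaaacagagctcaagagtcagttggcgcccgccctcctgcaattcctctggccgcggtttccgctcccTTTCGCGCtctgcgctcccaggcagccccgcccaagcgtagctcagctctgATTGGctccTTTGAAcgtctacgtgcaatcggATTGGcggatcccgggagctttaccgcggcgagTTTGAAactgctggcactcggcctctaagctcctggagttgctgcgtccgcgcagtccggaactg
*Pclaf* (a PCNA-binding protein of replication, chr9:65890073-65890372, plus strand): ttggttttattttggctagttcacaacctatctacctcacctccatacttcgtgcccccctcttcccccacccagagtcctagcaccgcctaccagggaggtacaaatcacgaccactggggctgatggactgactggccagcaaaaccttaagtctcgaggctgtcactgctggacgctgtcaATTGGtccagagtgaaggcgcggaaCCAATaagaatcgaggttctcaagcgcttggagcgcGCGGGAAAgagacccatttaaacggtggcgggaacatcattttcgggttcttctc
The *Top2a* window held 10 of these words, *Mki67* 5, *Cdk1* 6 and *Pclaf* 3, and the window of *Birc5*, a protein of cytokinesis and cell survival, held none. *Pclaf* had no CHR. Of 107 listed genes of the spindle, kinetochore and cytokinesis, 90 had a promoter in the RefSeq table, and 68.9% of these held a CHR and 70% a CCAAT box, beside 21.7% and 41.1% of all 27025 genes. E2F words were in 5.56% of those genes and in 2.605% of all genes. Of 68 listed replication genes 52 (76.5%) had a promoter in the table, too few for a share over that list. A match describes letters in a window and not a binding site, and a window with no match says nothing of the factor.

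The 5 cycle genes and 5 stromal genes chose the members, so their levels describe the choice and carry no test. Levels are CPM, the UMIs of a gene per 1000000 UMIs of all cells of a population in a library. *Top2a* (chr11:98992943-99024189, Gencode M21 annotation of GRCm38) stood at 187, 171 and 399 CPM in the members, *Mki67* at 183, 188 and 199.5 CPM, *Birc5* at 462, 385 and 561 CPM, *Cdk1* at 96.4, 198 and 397 CPM and *Ccnb2*, a mitotic cyclin, at 279, 204 and 364 CPM. All 5 were 0 in the non-cycling cells by definition. *Pclaf*, a marker of the population that the rule did not use, was at 191, 152 and 490.5 CPM in the members against 1.69, 1.10 and 2.02 CPM in the non-cycling cells, and 70%, 47.1% and 82.4% of members had a UMI of it. Near-empty barcodes, a measure of free RNA, held *Pclaf* at 47, 41.6 and 47.5 CPM, so the level in non-cycling cells lay under that of the free RNA.

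**Figure D1:**
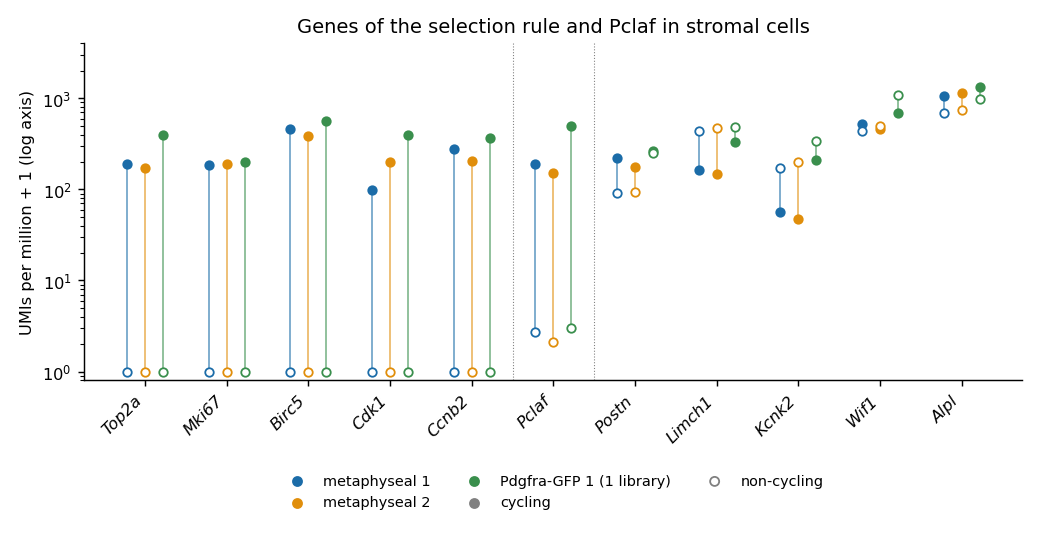
Level of the 5 cycle genes, *Pclaf* and the 5 stromal genes in each library, as CPM plus 1 on a log axis, with filled points for cycling and open points for non-cycling stromal cells joined by a line. *Limch1* and *Kcnk2* lie lower in the cycling cells of every library and *Alpl* lies higher, and the open points of the cycle genes lie at 0 UMIs by definition.

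The stromal label rested mostly on *Alpl*, the tissue-nonspecific alkaline phosphatase needed for mineralisation, which gave 52.7%, 58.3% and 46.7% of the members' UMIs from the 5 stromal genes. *Wif1*, a secreted Wnt inhibitor, gave 25.8%, 23.3% and 24.8%. At least 5 UMIs of *Alpl* alone were found in 90%, 88.2% and 85.6% of members. *Postn*, which encodes the matrix protein periostin and marks metaphyseal stroma, was at 220.4, 175 and 262 CPM in the cycling cells and 89.4, 91.7 and 252 CPM in the non-cycling cells, higher in the members of both metaphyseal libraries and level in the *Pdgfra-GFP* library. *Limch1*, an actin-binding protein, was at 163, 145 and 333 CPM in the cycling cells and 441, 473 and 486 CPM in the non-cycling cells, and *Kcnk2*, a potassium channel, at 55.1, 46.1 and 208 CPM in the cycling cells and 169, 199 and 339.9 CPM in the non-cycling cells. Both were lower in the members of all 3 libraries, and 33.3%, 52.9% and 63.9% of members had a UMI of *Limch1*, against 74.9%, 79.1% and 66.7% of the non-cycling cells. The sorted receptor gene *Pdgfra* was at 118, 122 and 36.8 CPM in the cycling cells and 128, 154 and 51.6 CPM in the non-cycling cells. The reporter transcript was at 0, 0 and 167 CPM in the members, with a UMI in 47.2% of the members of the *Pdgfra-GFP* library and 35.9% of its non-cycling stromal cells.

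Few members lay at the thresholds. Beside the members, 6, 1 and 21 stromal cells had 4 cycle UMIs, just outside the gate, and 1, 0 and 8 members had exactly 5. At the stromal gate, 1, 0 and 5 otherwise qualifying cells had 4 UMIs and 0, 0 and 5 members had 5. The median member had 16, 12 and 14 cycle UMIs and 26, 32 and 25 stromal UMIs. Of all cells past the cycle gate, whatever their lineage, 168, 136 and 535, the members were therefore a minor part in the metaphyseal libraries and a larger part in the *Pdgfra-GFP* library.

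The members were large in RNA. They had medians of 17404.5, 16225 and 10122.5 UMIs (ranges 5886 to 38435, 7845 to 34535 and 2094 to 21807) and of 4051, 4038 and 2993 genes, whereas the non-cycling stromal cells had medians of 7444.5, 7509 and 6620 UMIs. Ribosomal protein transcripts made up a median of 18.6%, 20.9% and 19.2% of a member's UMIs against 9.44%, 9.57% and 14.3% in non-cycling cells, and mitochondrial transcripts 2.58%, 2.55% and 0.896% against 3.04%, 3.27% and 1.05%. A gate on summed UMIs passes deep cells more easily, and a pair of cells in 1 droplet is deep as well. Scrublet called 1, 0 and 1 of the members doublets, in a total of 25, 17 and 155 called cells, 1.38% of the *Pdgfra-GFP* library where about 8.99% would be expected from its cell number. Doublets it missed were not tested.

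Markers of other cell types differed in level in the members. The 5 endothelial markers summed to 11.8, 13.2 and 4.93 CPM (4, 3 and 5 of them with a UMI, most of *Cdh5*, *Emcn* and *Cdh5*). Of 5 macrophage markers, 1, 0 and 5 had a UMI, with sums of 3.94, 0 and 4.93 CPM. The 4 megakaryocyte markers summed to 0, 0 and 5.38 CPM and the 5 B-lineage markers to 3.94, 3.29 and 5.83 CPM. The 6 neutrophil markers reached 7.87, 32.9 and 72.2 CPM and the 6 erythroid markers 25.6, 16.5 and 166 CPM, led in the *Pdgfra-GFP* library by *S100a8* and *Hba-a1*. The 6 chondrocyte markers reached 47.2, 280.0 and 430.4 CPM, led by *Col2a1*, below the non-cycling cells of metaphyseal replicate 1 and of the *Pdgfra-GFP* library and above those of metaphyseal replicate 2 (96.2, 108 and 601 CPM). The osteoclast sum of 167, 194 and 165 CPM was almost all *Ctsk*, the mural sum of 72.8, 115 and 364 CPM was led by *Acta2*, and the fibroblast sum of 78.7, 72.5 and 56.5 CPM by *S100a4*. The mural sum was 160, 227 and 199 CPM in the non-cycling cells and the fibroblast sum 33.2, 21 and 146 CPM, so both differed in direction between the metaphyseal and the *Pdgfra-GFP* libraries. The osteocyte sum was 80.7, 148 and 90.6 CPM, led by *Dmp1*. Exclusion gates set the endothelial, macrophage and chondrocyte values in part.

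Cycling cells made up 4.99% (exact 95% binomial interval 3.39 to 7.05, 30 of 601), 3.37% (1.98 to 5.35, 17 of 504) and 5.46% (4.77 to 6.21, 216 of 3959) of the cells past the stromal gate, a mean of 4.61% ± 1.09 (SD, n = 3 libraries). The intervals overlap, and they cover counting error only. With cells thinned to 2000 UMIs and both gates lowered to 2 UMIs, the shares were 2.86%, 2.04% and 4.64%. Among *Acan*+ chondrocytes gated the same way the cycling share was 7.32% (3 of 41), 10.8% (4 of 37) and 6.20% (100 of 1612). Among *Pecam1* and *Cdh5* positive endothelial cells it was 6.96% (76 of 1092), 6.92% (59 of 852) and 6.13% (13 of 212). The stromal share was the lowest of the 3 lineages in every library, without a test, since the gates set the shares. The exact intervals of the metaphyseal chondrocytes were wide (1.54 to 19.9 and 3.03 to 25.4). These and the interval of the *Pdgfra-GFP* endothelial cells (3.31 to 10.3) overlapped those of the stromal cells.

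The cycling share differed with the stromal transcripts a cell carried, given here as a description without a test. Of cells with at least 5 UMIs of *Alpl*, 8.60%, 5.84% and 7.46% passed the cycle gate, and 5.39%, 2.30% and 6.02% after thinning. Of cells with at least 5 UMIs of *Lepr*, *Adipoq*, *Kitl* and *Esm1* added up, genes of the diaphyseal and marrow stroma, 0.931% (7 of 752), 0.709% (5 of 705) and 0.841% (37 of 4400) did, and after thinning 0.809%, 0.580% and 0.865%. Cells rich in *Cxcl12*, the chemokine that holds blood stem cells in the marrow, gave 0.925%, 0.424% and 0.901%. These shares lay below those of the *Alpl* cells in all 3 libraries, before and after thinning. The other stromal gate genes, at 5 UMIs, varied. *Postn* gave 15.4%, 8.70% and 6.10%, *Wif1* 8.61%, 4.68% and 6.28%, *Limch1* 2.97%, 1.99% and 5.07% and *Kcnk2* 2.82%, 0% and 4.24%. After thinning they gave 4.55%, 8.70% and 3.00% (*Postn*), 3.16%, 0% and 4.76% (*Wif1*), 0.837%, 0% and 2.50% (*Limch1*) and 0%, 0% and 2.20% (*Kcnk2*). Among osteoblasts with at least 50 UMIs of *Bglap* and *Bglap2*, which encode osteocalcin, 2.86%, 3.53% and 0.772% cycled, and among cells with 5 UMIs of *Ibsp*, which encodes bone sialoprotein, 3.68%, 3.17% and 2.64%. Cells with 5 UMIs of *Mmp9*, a gelatinase of cartilage-resorbing septoclasts and osteoclasts, gave 7.41%, 5.56% and 11%, on 27, 18 and 327 cells. *Alpl*, *Postn*, *Wif1*, *Limch1* and *Kcnk2* belong to the stromal gate, the other genes do not, and cells can count under several genes.

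**Figure D2:**
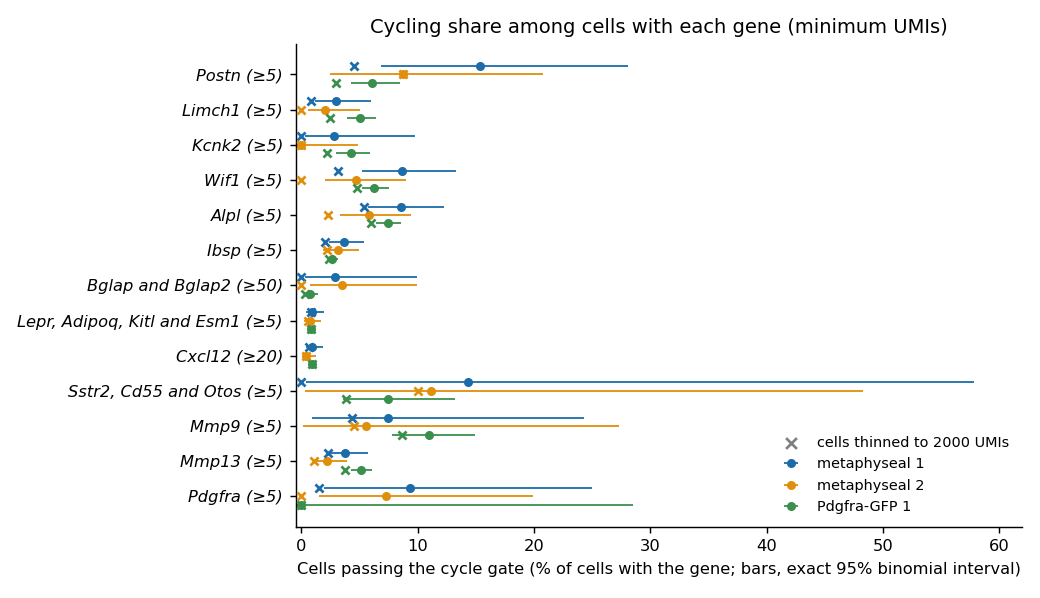
Share of cells past the cycle gate among the cells of each library that carry a gene at the stated minimum of UMIs (x axis, % of cells), with bars for the exact 95% binomial interval and crosses for cells thinned to 2000 UMIs. The shares for *Lepr*, *Adipoq*, *Kitl* and *Esm1* and for *Cxcl12* lie under 1% in all 3 libraries, and those for *Alpl* between 5.84% and 8.60%.

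Seen from the members, 3 of 30, 1 of 17 and 33 of 216 (10%, 5.88% and 15.3%) carried at least 5 UMIs of the *Lepr* group, against 62.4%, 63.9% and 29.1% of the non-cycling stromal cells. At least 5 UMIs of *Ibsp* were found in 76.7%, 100% and 60.2% of members against 66.3%, 61.3% and 53.2%, and of *Mmp13*, a collagenase, in 53.3%, 58.8% and 57.9% against 54.5%, 55.0% and 39.7%. The members had more UMIs per cell and so a higher chance of reaching 5. At most 1 UMI of the *Lepr* group was found in 21 of 30, 8 of 17 and 115 of 216 members, and a UMI of *Cxcl12* in 73.3%, 52.9% and 94% of them.

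Most members held more transcripts of spindle genes than of replication genes, and a minority held the reverse. Transcripts of 82 replication and nucleotide genes took a median of 0.189%, 0.148% and 0.299% of a member's UMIs, and those of 107 spindle and cytokinesis genes 0.940%, 0.487% and 1.10%. The replication share exceeded the spindle share in 3 of 30 members (10%, exact interval 2.11 to 26.5), 2 of 17 (11.8%, 1.46 to 36.4) and 40 of 216 (18.5%, 13.6 to 24.4), and 14 members of the *Pdgfra-GFP* library had the 2 shares within 10% of each other. The cycle gate itself holds mitotic genes, so it favours the spindle side, and cells in G1 without these transcripts could not be members. The shares were not scaled for the sizes of the 2 lists, so the balance depends on the lists. Among cycling chondrocytes of the *Pdgfra-GFP* library 20 of 100 (20%) leaned to replication, and among cycling endothelial cells 11 of 76, 18 of 59 and 2 of 13.

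**Figure D3:**
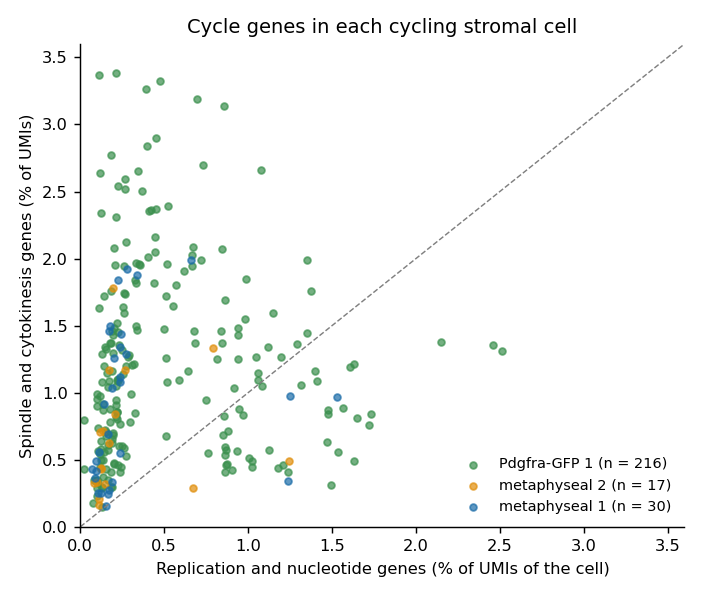
Each point is a cycling stromal cell, placed by the share of its UMIs from replication and nucleotide genes (x axis, %) and from spindle and cytokinesis genes (y axis, %), coloured by library, with a dashed line where both are equal. Of the 263 cells, 45 lie to the right of the line, and most others form a column at a low replication share with a spindle share of up to 3.38%.

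Single genes varied in how far they differed across the split. In the 40 replication-leaning members of the *Pdgfra-GFP* library, *Ccne2*, cyclin E2 of S-phase entry, was at 113 CPM against 10.2 CPM in the other 176, and *E2f1* at 93.7 against 6.81 CPM. *Ccnb1*, the main mitotic cyclin, was at 27.7 against 223 CPM and *Ccnb2* at 70.3 against 442 CPM. *Hist1h2ap*, a replication-dependent histone, was at 522 against 315 CPM there, at 688 against 93.8 CPM in metaphyseal replicate 1 and at 19.7 against 249 CPM in metaphyseal replicate 2. In the *Pdgfra-GFP* library *Top2a* was nearly level at 415 against 395 CPM, and *Cxcl12* was at 2088 against 1469.5 CPM. In the metaphyseal libraries, with 3 and 2 replication-leaning members, *Cxcl12* was at 4485 against 680 CPM and 2088 against 91 CPM, and *Top2a* at 561 against 156 CPM and 335 against 138 CPM. None of these values was tested.

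All 252 genes of the cycle lists together took 3.11%, 2.74% and 4.49% of the members' UMIs and 0.724%, 0.683% and 0.757% of those of non-cycling stromal cells. The following log2 fold changes between the 2 populations describe the choice of cells and carry no test. The median was 5.96 over the spindle list (104 of 107 positive), 2.66 over 67 replication genes, 2.41 over 14 genes of nucleotide supply, 2.64 over 59 histone and chromatin genes, 1.98 over 18 cyclins and CDKs and 1.44 over 17 E2F and Myb factors, beside −0.04 over all genes tested. *Cenpa*, the histone of the centromere, was at 480.1, 409 and 527 CPM in the cycling cells and 2.44, 2.65 and 4.01 CPM in the non-cycling cells. *Ube2c*, which targets mitotic cyclins for destruction, was at 214, 277 and 527 CPM in the cycling cells and 1.5, 0.663 and 3.01 CPM in the non-cycling cells. *Pcna*, the sliding clamp of replication, was at 106, 102 and 246 CPM in the cycling cells and 42.4, 34 and 42.3 CPM in the non-cycling cells, a smaller contrast. *Tyms*, thymidylate synthase, was at 72.8, 105 and 269.9 CPM in the cycling cells and 9.56, 10.8 and 14.2 CPM in the non-cycling cells. The cyclin D genes of G1 went apart. *Ccnd1* was at 153, 98.8 and 46.6 CPM in the cycling cells and 47.4, 43.5 and 32 CPM in the non-cycling cells, higher in the members of each library. *Ccnd2* was at 64.9, 75.8 and 125 CPM in the cycling cells and 139, 153 and 238 CPM in the non-cycling cells, lower in each. *Ccna2*, cyclin A2 of S and G2, was at 98.4, 65.9 and 148 CPM in the cycling cells and 0.187, 0.884 and 0.952 CPM in the non-cycling cells. *Foxm1*, the activator of mitotic genes, was at 33.5, 32.9 and 34.1 CPM in the cycling cells and 1.31, 1.77 and 0.555 CPM in the non-cycling cells.

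Beyond the rule and the cycle lists, 1453 of 12068 genes (12%) differed between cycling and non-cycling stromal cells, 867 higher in the cycling cells (7.18%) and 586 lower (4.86%), by edgeR's quasi-likelihood test on UMIs summed per library and population with the library as a block (Benjamini-Hochberg adjusted p under 0.05). Size factors from DESeq2 in place of TMM moved the median log2 fold change of all genes from −0.04 to −0.15 and the split to 629 higher and 836 lower. Leaving out a library gave between 431 and 1675 genes, and without the library block 510 passed. In cells thinned to 2000 UMIs 576 passed, 201 higher and 375 lower, and 454 of them were among the 1453. A difference between sums can reflect more cells with a transcript or more transcript per cell, which cannot be told apart in a sum.

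The following 12 genes had the highest log2 fold changes among the called genes outside the rule and the cycle lists. They had the same direction in every library and a mean of 20 CPM or more over the cycling and non-cycling sums. *Mxd3* and *Cip2a* reached that mean only through the cycling cells. Several of the 12 encode proteins of division. Their rise is tied to the choice of cells as in the cycle lists, so their p-values are no independent support. *Mxd3*, a repressor of the MYC network found in dividing cells, was at 37.4, 26.4 and 113 CPM in the cycling cells and 0.187, 0.221 and 0.476 CPM in the non-cycling cells (log2 fold change 7.45 ± 0.39, adjusted p = 9.2e-11). *Cip2a*, an inhibitor of the phosphatase PP2A, was at 51.2, 32.9 and 53.8 CPM in the cycling cells and 0.937, 1.55 and 0.793 CPM in the non-cycling cells (log2 fold change 5.58 ± 0.33, adjusted p = 3.8e-10). On the log2 scale *Plk4*, the kinase of centriole duplication, rose by 2.81 ± 0.28, *Haus4*, a subunit of the augmin complex of the spindle, by 2.59 ± 0.30, and *Fam111a*, a protease of replication forks, by 3.74 ± 0.34. The cycling and non-cycling values of these 5 genes did not overlap across libraries. Here and below, the choice of called genes favours such a gap, which describes the values only. Its share over all genes is not given here. *Mns1*, *Hirip3*, *Tcf19*, *Syce2* and *Dynlt1a* rose by 5.21 ± 0.39, 3.17 ± 0.30, 3.08 ± 0.40, 2.67 ± 0.37 and 2.50 ± 0.32, and among these *Syce2* alone lost its call when a library was left out (edgeR adjusted p = 0.0605 without the *Pdgfra-GFP* library). *Selenoh*, a selenoprotein of the nucleolus, was at 521, 478 and 672 CPM in the cycling cells and 97.5, 79.8 and 103 CPM in the non-cycling cells (log2 fold change 2.57 ± 0.15, adjusted p = 3.8e-10). *Hhip*, a hedgehog-binding antagonist at the cell surface, was at 41.3, 56 and 12.1 CPM in the cycling cells and 3.37, 4.20 and 3.77 CPM in the non-cycling cells (log2 fold change 2.77 ± 0.63, adjusted p = 0.0228). It was highest in the metaphyseal members, and its adjusted p was 0.149 without metaphyseal replicate 1 and 0.127 without metaphyseal replicate 2.

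Of the INK4 inhibitors *Cdkn2a*, *Cdkn2c* and *Cdkn2d* rose in the members. The remaining member of the family, *Cdkn2b* (p15), was at 0, 0 and 2.69 CPM in the cycling cells and 6.75, 4.86 and 8.01 CPM in the non-cycling cells (edgeR adjusted p = 0.117). Of 14 CDK inhibitors and pocket proteins, 4 were higher and 1 was lower, with a median log2 fold change of 0.43. The share over all genes was 7.18% higher and 4.86% lower, from which 1 lower call cannot be set apart. *Cdkn2a*, which encodes the inhibitor p16 and, in another reading frame, the p53 activator p19ARF, was at 37.4, 16.5 and 41.2 CPM in the cycling cells and 8.44, 5.30 and 7.02 CPM in the non-cycling cells (log2 fold change 2.26 ± 0.26, adjusted p = 6.07e-06). The lowest value in the members lay above the highest in the non-cycling cells, and the call held in 18 of 18 alternatives. *Cdkn2c* (p18) was at 37.4, 49.4 and 128 CPM in the cycling cells and 18, 19.7 and 19.7 CPM in the non-cycling cells (log2 fold change 2.01 ± 0.27, adjusted p = 3.9e-05) and *Cdkn2d*, another INK4 inhibitor, at 59, 49.4 and 172 CPM in the cycling cells and 34.1, 30.3 and 35.1 CPM in the non-cycling cells (log2 fold change 1.43 ± 0.24, adjusted p = 0.000396). For both, the groups did not overlap and the *Pdgfra-GFP* members were the highest. *Rbl1*, the pocket protein p107, was at 15.7, 16.5 and 22.4 CPM in the cycling cells and 6.19, 8.62 and 4.64 CPM in the non-cycling cells (log2 fold change 1.79 ± 0.35, adjusted p = 0.00159), with an adjusted p of 0.131 without the *Pdgfra-GFP* library. *Cdkn1c*, the inhibitor p57 of the CIP/KIP family, went the other way at 31.5, 16.5 and 58.3 CPM in the cycling cells and 124, 120.0 and 145 CPM in the non-cycling cells (log2 fold change −1.74 ± 0.24, adjusted p = 4.26e-05), again with no overlap. In cells with at most 1 UMI of the *Lepr* group *Cdkn1c* and *Cdkn2d* missed the threshold (0.0556 and 0.0517), and without the block *Cdkn2d* did (0.050). *Trp53*, which encodes p53, was at 86.6, 75.8 and 141 CPM in the cycling cells and 60.6, 58.6 and 79.9 CPM in the non-cycling cells and *Rb1*, the retinoblastoma gene, at 17.7, 19.8 and 10.8 CPM in the cycling cells and 12.9, 15.2 and 7.02 CPM in the non-cycling cells, and neither passed (edgeR adjusted p = 0.054 and 0.308). Counts per gene do not separate p16 from p19ARF.

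**Figure D4:**
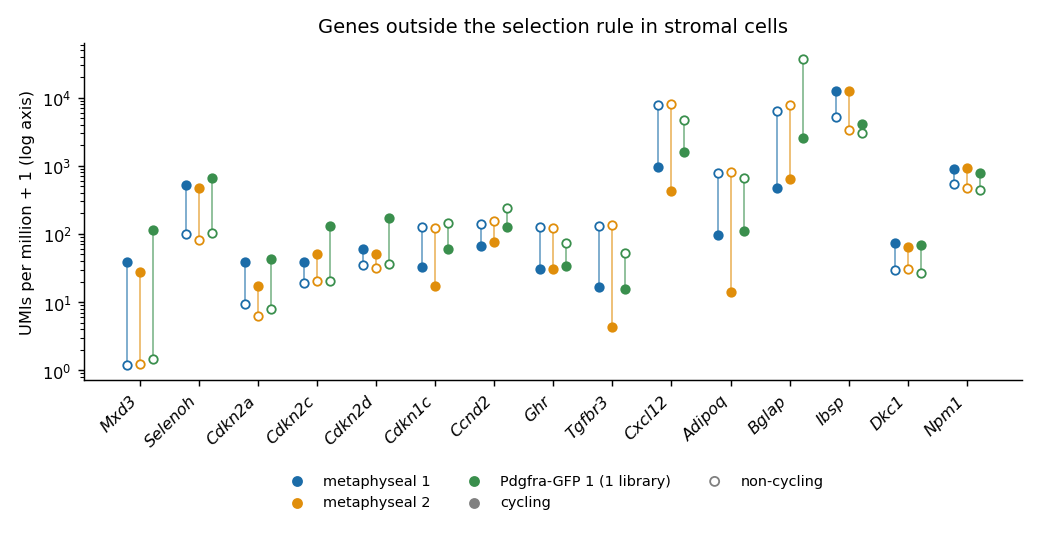
Level of 15 genes outside the selection rule in each library, as CPM plus 1 on a log axis, with filled points for cycling and open points for non-cycling stromal cells. *Cdkn2a*, *Cdkn2c* and *Cdkn2d* lie higher in the cycling cells of every library and *Cdkn1c*, *Ccnd2*, *Ghr*, *Tgfbr3*, *Cxcl12*, *Adipoq* and *Bglap* lower, and the *Ibsp* points lie closest together in the *Pdgfra-GFP* library.

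Of 29 genes of diaphyseal marrow stroma and of adipogenesis, 22 were lower in the members and 0 higher, with a median log2 fold change of −2.25. Among all genes tested, 4.86% were lower and 7.18% higher. *Cxcl12* was at 974, 425 and 1599.6 CPM in the cycling cells and 7746, 8144 and 4778 CPM in the non-cycling cells (log2 fold change −3.16 ± 0.77, adjusted p = 0.0319). *Adipoq*, which encodes adiponectin, was at 96.4, 13.2 and 110.3 CPM in the cycling cells and 792, 816 and 663 CPM in the non-cycling cells (log2 fold change −3.79 ± 0.85, adjusted p = 0.0232), and *Apoe*, a lipid carrier, at 128, 72.5 and 642 CPM in the cycling cells and 1672, 1626 and 1704 CPM in the non-cycling cells (log2 fold change −2.95 ± 0.46, adjusted p = 0.00348). For these 3 genes every member value lay below every non-cycling value, and metaphyseal replicate 2 was the lowest among the members. *Ebf1*, a transcription factor of marrow stroma, fell by 1.18 ± 0.20 on the log2 scale (edgeR adjusted p = 0.000462). *Esm1*, a secreted proteoglycan, fell by 3.55 ± 0.90 (0.0373), and *Lepr*, the leptin receptor, and *Kitl*, the ligand of KIT, both named after their values were seen, were at 47.2, 72.5 and 65.5 CPM in the cycling cells and 226, 261 and 96 CPM in the non-cycling cells (adjusted p = 0.00365) and at 57.1, 32.9 and 54.2 CPM in the cycling cells and 526, 592 and 137 CPM in the non-cycling cells (0.0154).

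Several of these calls depended on single libraries. Without metaphyseal replicate 1 or 2 the list had 4 and 11 lower calls, and without the *Pdgfra-GFP* library 27 of 28. The median log2 fold changes of the list in these fits were −1.97, −1.93 and −3.27. The adjusted p of *Cxcl12* was 0.277 without metaphyseal replicate 1 and 0.314 without metaphyseal replicate 2, that of *Adipoq* 0.223 without metaphyseal replicate 1 and 0.158 without metaphyseal replicate 2, that of *Esm1* 0.191 without metaphyseal replicate 1 and 0.312 without metaphyseal replicate 2 and that of *Kitl* 0.287 without metaphyseal replicate 1 and 0.059 without metaphyseal replicate 2. Leaving out metaphyseal replicate 1 alone gave 0.0992 for *Apoe*, 0.0677 for *Ebf1* and 0.115 for *Lepr*. In an alternative chosen after these values were seen, both populations were restricted to cells with at most 1 UMI of *Lepr*, *Adipoq*, *Kitl* and *Esm1*. It left 21, 8 and 115 members against 149, 114 and 1659 non-cycling cells, and metaphyseal replicate 2, with under 10 members, gave no cycling sum. In these cells 1 of 26 genes of the list was lower, the median was −0.17, and 287 genes passed in all.

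The lowest log2 fold changes among called genes outside the rule and the cycle lists were those of 12 genes. *Igfbp3*, which binds insulin-like growth factors, was at 7.87, 0 and 18.8 CPM in the cycling cells and 199, 184 and 105 CPM in the non-cycling cells (log2 fold change −4.28 ± 0.82, adjusted p = 0.0104, and 0.201 without metaphyseal replicate 1 and 0.0817 without metaphyseal replicate 2). *Il34*, a ligand of the macrophage receptor CSF1R, was at 5.90, 0 and 4.48 CPM in the cycling cells and 68.1, 78.2 and 44.3 CPM in the non-cycling cells (log2 fold change −3.96 ± 0.63, adjusted p = 0.00135), with no loss of the call on leaving out a library but with an adjusted p of 0.12 in cells with at most 1 UMI of the *Lepr* group. *Chrdl1*, a BMP antagonist, *Hp*, haptoglobin, and *Itih5* fell by 3.19 ± 0.56, 3.32 ± 0.90 and 3.56 ± 0.83 on the log2 scale, and each lost its call without a metaphyseal library (edgeR adjusted p = 0.0753 without metaphyseal replicate 1 for *Chrdl1*, 0.386 without metaphyseal replicate 1 and 0.291 without metaphyseal replicate 2 for *Hp* and 0.171 without metaphyseal replicate 2 for *Itih5*). *Slfn5*, of the interferon-inducible Schlafen family, and *Prss35*, a serine protease relative, fell by 3.44 ± 0.43 and 3.46 ± 0.39 and kept their calls without each library, whereas *Slfn5* did not pass in cells with at most 1 UMI of the *Lepr* group (0.144) nor *Prss35* in cells with osteocalcin under 0.5% of UMIs (0.328). The other 5 of the 12 lowest were *Adipoq*, *Esm1* and the osteocalcin genes.

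Osteocalcin, a protein of mature osteoblasts, was lower in the summed UMIs of the members. *Bglap* was at 478, 646 and 2586 CPM in the cycling cells and 6429, 7881 and 37323 CPM in the non-cycling cells (log2 fold change −3.72 ± 0.73, adjusted p = 0.0131) and *Bglap2* at 249.9, 405 and 1142 CPM in the cycling cells and 3047, 3658 and 16608 CPM in the non-cycling cells (log2 fold change −3.52 ± 0.54, adjusted p = 0.00369). For both, the groups did not overlap, and the *Pdgfra-GFP* library was the highest in either population. *Bglap3* fell by 3.80 ± 0.58 (adjusted p = 0.00177), and *Phex*, a peptidase of late osteoblasts and osteocytes named after its value was seen, fell by 1.90 ± 0.36 (0.00159). The adjusted p was 0.257 without metaphyseal replicate 1 and 0.093 without metaphyseal replicate 2 for *Bglap* and 0.159 without metaphyseal replicate 1 for *Bglap2*. The 3 osteocalcin genes are close copies whose reads may be divided among them, and near-empty barcodes held *Bglap* at 3255, 5201 and 23891 CPM. The median cell had 0.505, 0.344 and 5 UMIs of *Bglap* per 10000 of its UMIs among the members and 0, 0 and 8.99 among the non-cycling cells. The lower sums of the metaphyseal members thus came with a higher median. Single non-cycling cells reached 1299.7, 1228 and 2401. The genes named so far were the 4 lower calls among 30 osteoblast genes, with 0 higher, and 3 of the 4 were the osteocalcin genes. For all genes the shares were 4.86% lower and 7.18% higher. The lower osteoblast calls were 2, 3 and 8 without each library in turn. *Ibsp*, an earlier matrix gene, was at 12491, 12457 and 4152 CPM in the cycling cells and 5258, 3306 and 2988 CPM in the non-cycling cells. *Spp1*, which encodes osteopontin, was at 14906, 19349 and 14338 CPM in the cycling cells and 7380.4, 5602 and 12567 CPM in the non-cycling cells. Both were higher in the members of each library and neither passed (edgeR adjusted p = 0.419 and 0.535). In cells with osteocalcin under 0.5% of UMIs, a restriction added with the values known, no osteoblast gene passed in either direction.

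Of 43 genes of the fibrillar matrix and its partners, 0 were higher and 6 lower, with a median of −0.37. Over all genes tested, 7.18% were higher and 4.86% lower. The main collagen of bone was abundant in the members. *Col1a1* was at 37365, 37254 and 12200.3 CPM in the cycling cells and 56691, 56301 and 44144 CPM in the non-cycling cells, and *Col1a2* at 23408, 24946 and 10316 CPM in the cycling cells and 39882, 39756 and 33624 CPM in the non-cycling cells, lower in the members of each library. Neither passed (edgeR adjusted p = 0.753 and 0.703), with the *Pdgfra-GFP* members the lowest. Per cell the order differed. The median cell had 145, 436 and 28.5 UMIs of *Col1a1* per 10000 of its UMIs among the members and 6.90, 8.33 and 25.5 among the non-cycling cells, whose upper quartiles were 385, 357 and 540. *Sparc*, a collagen-binding protein, was at 16989, 15837 and 12602 CPM in the cycling cells and 24581, 22728 and 31809 CPM in the non-cycling cells (adjusted p = 0.355). The count of lower calls was 4, 3 and 10 without metaphyseal replicate 1, metaphyseal replicate 2 and the *Pdgfra-GFP* library.

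Of 28 receptors measured, 4 were lower and 2 higher, and 25 log2 fold changes were negative, beside 4.86% lower and 7.18% higher of all genes, so the higher calls lay at the share of all genes. The lower calls were 2, 2 and 9 on leaving out each library in turn and the higher calls 0, 0 and 1. *Ghr*, the growth hormone receptor, was at 29.5, 29.7 and 32.3 CPM in the cycling cells and 125, 120.2 and 73.3 CPM in the non-cycling cells (log2 fold change −1.68 ± 0.20, adjusted p = 8.67e-06), and *Tgfbr3*, the co-receptor betaglycan, at 15.7, 3.29 and 14.8 CPM in the cycling cells and 129, 133 and 51.6 CPM in the non-cycling cells (log2 fold change −2.67 ± 0.33, adjusted p = 2.39e-05). Neither gene's groups overlapped, and both calls held without each library. In cells with at most 1 UMI of the *Lepr* group neither passed (0.298 and 0.552), and 0 of 27 receptors did. *Fgfr2* and the activin receptor *Acvr2a* fell by 1.15 ± 0.25 and 1.77 ± 0.46 on the log2 scale, with adjusted p of 0.115 without metaphyseal replicate 1 and 0.115 without metaphyseal replicate 2 for *Fgfr2* and 0.226 without metaphyseal replicate 1 and 0.12 without metaphyseal replicate 2 for *Acvr2a*. *Fgfr1* was at 169, 152 and 197 CPM in the cycling cells and 209.6, 211 and 226 CPM in the non-cycling cells and *Igf1r* at 29.5, 13.2 and 25.1 CPM in the cycling cells and 39.9, 46.6 and 34.5 CPM in the non-cycling cells, and neither passed (edgeR adjusted p = 0.266 and 0.0664). *Ptch1*, a hedgehog receptor that is also a target of that pathway, was at 100.4, 62.6 and 59.6 CPM in the cycling cells and 53.4, 51.9 and 36.7 CPM in the non-cycling cells (log2 fold change 0.63 ± 0.21, adjusted p = 0.0496), and its call was lost in 16 of 18 alternatives, among them leaving out metaphyseal replicate 1 (0.504) or 2 (0.172).

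Among 36 growth factors and antagonists, 11 were lower and 2 higher, with a median of −0.76. Of all genes 4.86% were lower and 7.18% higher. The higher calls were no more frequent than that share. *Ptn*, pleiotrophin, was at 242, 145 and 285 CPM in the cycling cells and 71.2, 71.1 and 129 CPM in the non-cycling cells (log2 fold change 1.29 ± 0.21, adjusted p = 0.000347), with no overlap and an adjusted p of 0.0588 without metaphyseal replicate 1. *Igfbp7* was at 409, 201 and 1373 CPM in the cycling cells and 1317, 1386 and 1786 CPM in the non-cycling cells (log2 fold change −1.60 ± 0.40, adjusted p = 0.0315, and 0.259 without metaphyseal replicate 1 and 0.0927 without metaphyseal replicate 2). The count of lower calls was 4, 5 and 11 without each library in turn, and 1 in cells with at most 1 UMI of the *Lepr* group, where *Ptn* did not pass either (0.208). Of 25 genes of skeletal progenitors, 2 were higher, a share near the 7.18% of all genes, and 4 lower. *Clu*, the chaperone clusterin, was at 66.9, 75.8 and 241 CPM in the cycling cells and 322, 337 and 354 CPM in the non-cycling cells (log2 fold change −1.71 ± 0.33, adjusted p = 0.00423, and 0.0572 without metaphyseal replicate 1), and *Nes*, which encodes the intermediate filament nestin and is named after its value was seen, at 37.4, 32.9 and 15.2 CPM in the cycling cells and 11.2, 5.97 and 6.66 CPM in the non-cycling cells (log2 fold change 1.59 ± 0.31, adjusted p = 0.00166, and 0.28 in thinned cells and 0.216 in cells with at most 1 UMI of the *Lepr* group).

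Septoclasts are the mesenchymal cells that resorb cartilage at the growth plate, and 2 of 13 of their genes were higher in the members and 1 lower, counts too small to set apart from the 7.18% and 4.86% of all genes. *Fabp5*, a fatty acid-binding protein that marks septoclasts, was at 136, 102 and 447 CPM in the cycling cells and 45.7, 84.8 and 98.6 CPM in the non-cycling cells (log2 fold change 1.49 ± 0.31, adjusted p = 0.00692). It was highest in the *Pdgfra-GFP* members, and its adjusted p was 0.186 without metaphyseal replicate 1 and 0.072 without the *Pdgfra-GFP* library. *Fbln1*, which encodes the matrix protein fibulin-1, was at 57.1, 32.9 and 183 CPM in the cycling cells and 46.3, 38.4 and 67.1 CPM in the non-cycling cells (log2 fold change 0.76 ± 0.23, adjusted p = 0.0362). It lay below the non-cycling cells in metaphyseal replicate 2, and its adjusted p was 0.186 without metaphyseal replicate 1, 0.0738 without metaphyseal replicate 2 and 0.787 without the *Pdgfra-GFP* library. Both genes are named after their values were seen. The proteases *Mmp13*, at 2190.1, 2066 and 2711 CPM in the cycling cells and 1653, 1666 and 1793 CPM in the non-cycling cells, *Mmp14*, at 488, 287 and 627 CPM in the cycling cells and 311, 293 and 374 CPM in the non-cycling cells, and *Ctsk*, at 153, 184 and 155 CPM in the cycling cells and 217, 214 and 227 CPM in the non-cycling cells, did not pass (edgeR adjusted p = 0.778, 0.123 and 0.481). *Ctsb* and *Mmp9* did not pass either, with log2 fold changes of −0.42 ± 0.26 and 0.02 ± 0.32 (edgeR adjusted p = 0.355 and 0.993). At least 5 UMIs of *Sstr2*, *Cd55* and *Otos* were found in 3.33%, 5.88% and 4.17% of the members and in 1.02%, 0.962% and 1.77% of non-cycling cells, 1, 1 and 9 members in number.

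A part of the genes of ribosome assembly and energy supply was higher in the members. Across all genes the shares were 7.18% higher and 4.86% lower. Of 36 ribosome biogenesis genes 14 were higher and 0 lower, with a median of 0.51. *Npm1*, nucleophosmin, was at 905, 916 and 792 CPM in the cycling cells and 544, 471 and 443 CPM in the non-cycling cells (log2 fold change 0.84 ± 0.15, adjusted p = 0.000491), *Ncl*, nucleolin, rose by 0.69 ± 0.15 on the log2 scale (0.00462), and *Dkc1*, the pseudouridine synthase dyskerin, named after its value was seen, was at 72.8, 62.6 and 67.2 CPM in the cycling cells and 28.9, 29.2 and 25.5 CPM in the non-cycling cells (log2 fold change 1.28 ± 0.18, adjusted p = 5.57e-05). *Dkc1* kept its call without each library, whereas the adjusted p was 0.0622 without metaphyseal replicate 1 and 0.0674 without metaphyseal replicate 2 for *Npm1* and 0.223 without metaphyseal replicate 1 and 0.066 without metaphyseal replicate 2 for *Ncl*. Of 28 genes of the respiratory chain 10 were higher and 0 lower, with *Atp5b* at 811, 843 and 1052 CPM in the cycling cells and 556, 501 and 661 CPM in the non-cycling cells (log2 fold change 0.66 ± 0.14, adjusted p = 0.00314) and *Cox8a* up by 0.49 ± 0.14 (0.0241). Of 17 glycolysis genes 5 were higher and 0 lower, with *Gapdh* at 708, 702 and 925 CPM in the cycling cells and 525, 460.0 and 502 CPM in the non-cycling cells (log2 fold change 0.64 ± 0.15, adjusted p = 0.00822), *Ldha* up by 0.57 ± 0.17 (0.0258) and *Tpi1* by 0.82 ± 0.22 (0.015).

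The calls in these 3 groups differed between settings that change the cells, the depth or the scaling. The members had more UMIs per cell than the non-cycling cells in every library. With cells thinned to 2000 UMIs, 1, 0 and 0 genes of ribosome biogenesis, respiratory chain and glycolysis passed, with median log2 fold changes of 0.55, 0.26 and 0.32 beside 0.51, 0.39 and 0.18 in all UMIs. Among cells of 5000 to 20000 UMIs 3, 2 and 1 passed, with medians of 0.31, 0.30 and 0.02. In the cells with at most 1 UMI of the *Lepr* group, 2, 0 and 0 passed, with medians of 0.18, 0.02 and −0.07, and there the non-cycling cells had medians of 19632, 20004.5 and 7725 UMIs. Without metaphyseal replicate 1, 2, 1 and 0 passed, and without metaphyseal replicate 2, 4, 0 and 0. Without the *Pdgfra-GFP* library 14, 16 and 6 passed. With DESeq2 size factors the counts were 12, 5 and 5. In the INK4 and pocket protein group, 3, 4 and 3 genes were higher in the thinned cells, in the depth window and in the cells without the *Lepr* group. Thinning leaves fewer UMIs to test, and the restriction on the *Lepr* group also removes the cycling sum of metaphyseal replicate 2.

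Immediate early genes, which cells switch on within minutes of a signal or of handling, had 3 of 23 lower and 0 higher, with a median of −0.77 and 22 of 23 log2 fold changes negative. Beside this, 4.86% of all genes were lower and 7.18% higher. *Jun* was at 394, 389 and 154 CPM in the cycling cells and 1033, 852 and 178 CPM in the non-cycling cells (log2 fold change −0.91 ± 0.22, adjusted p = 0.00929, and 0.195 without metaphyseal replicate 1 and 0.14 without metaphyseal replicate 2) and *Jund* at 435, 425 and 123 CPM in the cycling cells and 921, 783 and 203 CPM in the non-cycling cells (log2 fold change −0.90 ± 0.17, adjusted p = 0.00125, and 0.122 without metaphyseal replicate 1). *Fos* was at 1017, 982 and 330.0 CPM in the cycling cells and 1788, 1641 and 498 CPM in the non-cycling cells and did not pass (edgeR adjusted p = 0.206). For all 3 genes the *Pdgfra-GFP* cells were lower than the metaphyseal cells of either population, so the groups overlapped across libraries and were ordered within each. Without metaphyseal replicate 1, metaphyseal replicate 2 and the *Pdgfra-GFP* library, 0, 2 and 10 genes of the list were lower.

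**Figure D5:**
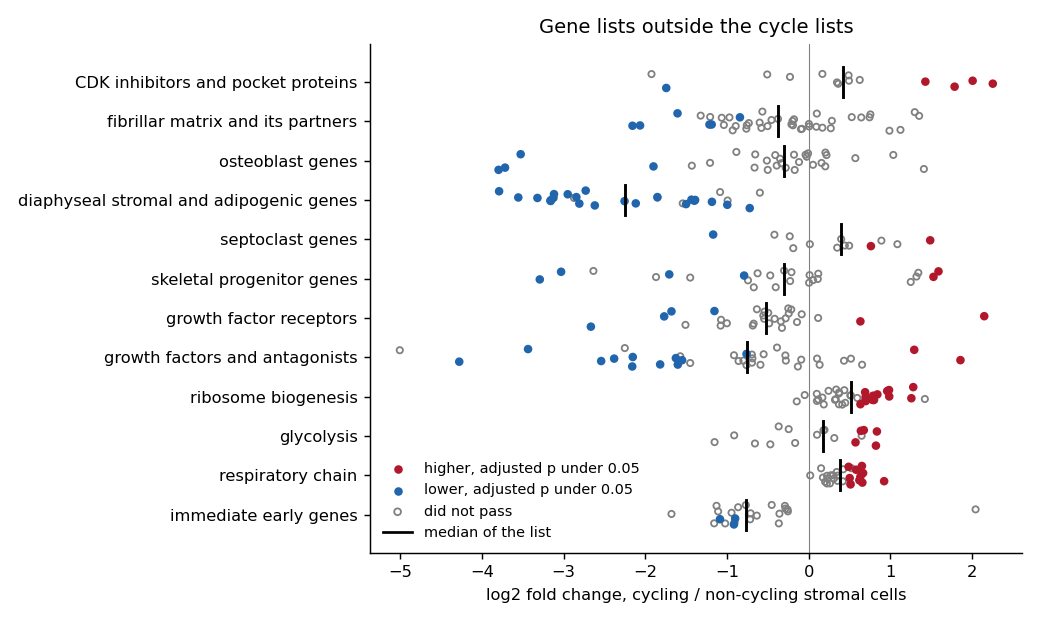
Log2 fold change between cycling and non-cycling stromal cells (x axis) for every measured gene of 12 lists (rows), with filled points for genes at an adjusted p under 0.05, open points for the others and a bar at each list's median. The diaphyseal and adipogenic genes lie at negative values throughout with a median of −2.25, and the ribosome biogenesis and respiratory chain genes have medians of 0.51 and 0.39.

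Cycling chondrocytes, with at least 5 UMIs of *Acan* and the same cycle gate, numbered 3, 4 and 100, so only those of the *Pdgfra-GFP* library entered the fit. The level of the cycling stromal cells, the library block and the spread were fitted over all 3 libraries. A log2 fold change can therefore differ from the ratio of the CPM values printed beside it, which are those of the *Pdgfra-GFP* library. Of 12349 genes 1301 (10.5%) differed, 519 higher (4.20%) and 782 lower (6.33%) in the stromal cells. With populations of at least 3 cells, 845 of 10032 genes were higher and 761 lower. The larger side of the split changed. This setting was chosen after the data were seen, and it brings in the cycling chondrocytes of the metaphyseal libraries. The gates on *Acan* set the lineage of both groups, so lineage genes follow from the choice of cells. Glycolysis was lower in the stromal cells, with 0 higher and 13 lower of 17 genes and a median of −1.72. The following genes of this comparison were named after their values were seen. *Slc16a3*, the lactate exporter, was at 4.93 CPM in the cycling stromal cells and 131 CPM in the cycling chondrocytes (log2 fold change −4.84 ± 0.68, adjusted p = 0.000307), *Pgk1* at 169 CPM in the cycling stromal cells and 598 CPM in the cycling chondrocytes (log2 fold change −2.04 ± 0.26, adjusted p = 1.21e-05) and *Eno1* at 157 CPM in the cycling stromal cells and 555 CPM in the cycling chondrocytes (log2 fold change −2.14 ± 0.23, adjusted p = 1.73e-06). *Slc2a1*, a glucose transporter, was at 5.83 CPM in the cycling stromal cells and 41.7 CPM in the cycling chondrocytes (log2 fold change −3.27 ± 0.40, adjusted p = 9.73e-06).

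The inhibitors differed in both directions. *Cdkn1c* was at 58.3 CPM in the cycling stromal cells and 443 CPM in the cycling chondrocytes (log2 fold change −3.54 ± 0.30, adjusted p = 7.81e-08) and *Cdkn2c* at 128 CPM in the cycling stromal cells and 317 CPM in the cycling chondrocytes (log2 fold change −2.07 ± 0.32, adjusted p = 0.000188). With populations of at least 3 cells, which brings in the metaphyseal chondrocytes, *Cdkn2c* did not pass (0.0901). *Cdkn2a* was higher in the stromal cells at 41.2 CPM in the cycling stromal cells and 11 CPM in the cycling chondrocytes (log2 fold change 1.54 ± 0.43, adjusted p = 0.0234), a call that was lost in 5 of 15 alternatives, among them leaving out metaphyseal replicate 1 (0.0846) or 2 (0.0529). Of 13 septoclast genes 6 were higher and 0 lower, beside 4.20% higher and 6.33% lower of all genes. *Mmp9* was at 733 CPM in the cycling stromal cells and 23.6 CPM in the cycling chondrocytes (log2 fold change 4.48 ± 0.58, adjusted p = 0.000108), although it did not pass without the library block (0.329), and *Sstr2*, a somatostatin receptor, had 55 UMIs against 1. *Fgfr3*, the receptor that restrains growth plate chondrocytes, was at 29.1 CPM in the cycling stromal cells and 111 CPM in the cycling chondrocytes (log2 fold change −2.45 ± 0.31, adjusted p = 1.45e-05). Among division genes, 14 of 107 spindle genes and 2 of 67 replication genes were lower, the latter a share below the 6.33% of all genes, and none was higher in the stromal cells, which had a lower share of UMIs from the 252 cycle genes (4.49% against 4.78%), while in the metaphyseal libraries, with 3 and 4 cycling chondrocytes, the share was higher in the stromal cells (3.11% against 2.69% and 2.74% against 2.05%).

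Highest in the stromal cells were *Shc2*, with 43 UMIs against 0 (at least 8.16-fold higher, from a floor of 3 UMIs), *Col22a1*, a collagen of osteoblasts, with 155 against 1, *Ifitm5*, a membrane protein of osteoblasts, with 941 against 10, and *Fam20a*, *Rasgrp2* and *Pde5a*, with 94 against 1, 343 against 5 and 90 against 1. Lowest were *Ncmap*, *Syt8*, *C1qtnf3* and *Fam180a*, with 1 UMI against 456, 1 against 274, 2 against 361 and 3 against 508, and *Snorc* and *Cnmd*, of cartilage, with 74 against 11396 and 34 against 5136. Near-empty barcodes of this library held *Snorc* at 1939.7 CPM against 33.2 CPM in the cycling stromal cells.

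Cycling endothelial cells numbered 76, 59 and 13. Of 12349 genes 3472 (28.1%) differed from them, 1915 higher (15.5%) and 1557 lower (12.6%) in the cycling stromal cells. Of 107 spindle genes 34 were lower and 1 higher, with a median of −0.63, and of 67 replication genes 7 were lower and 0 higher, a share below that of all genes called lower, beside a median of 0.08 over all genes tested. The 252 cycle genes took 3.11%, 2.74% and 4.49% of UMIs in stromal and 5.33%, 5.43% and 5.17% in endothelial cycling cells. The cycling endothelial cells had medians of 7501, 7024 and 5026 UMIs, below those of the members, so the gate of 5 cycle UMIs asked for a larger share of their transcripts. Genes of these lists are again named after their values were seen. *Kif23*, a kinesin of cytokinesis, was at 53.1, 23.1 and 76.7 CPM in the cycling stromal cells and 235, 200.1 and 132 CPM in the cycling endothelial cells (log2 fold change −1.62 ± 0.33, adjusted p = 0.00109). *Aspm*, of the spindle poles, was at 39.4, 32.9 and 34.5 CPM in the cycling stromal cells and 124, 175 and 92.3 CPM in the cycling endothelial cells (log2 fold change −1.47 ± 0.28, adjusted p = 0.000322), and *Cep55*, of the midbody, at 39.4, 23.1 and 23.8 CPM in the cycling stromal cells and 103, 111 and 132 CPM in the cycling endothelial cells (log2 fold change −1.51 ± 0.32, adjusted p = 0.00111). *Aspm* did not pass in thinned cells (0.075) nor *Cep55* in cells of 5000 to 20000 UMIs (0.212), and *Kif23* passed in both. For these 3 genes the values in the stromal cells lay below those in the endothelial cells of the same library.

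*E2f7*, a repressor of E2F targets, was at 7.87, 6.59 and 11.7 CPM in the cycling stromal cells and 57.9, 41.2 and 39.6 CPM in the cycling endothelial cells (log2 fold change −1.74 ± 0.41, adjusted p = 0.00253, and 0.171 without metaphyseal replicate 1), and *Ccna2* at 98.4, 65.9 and 148 CPM in the cycling stromal cells and 218, 233 and 198 CPM in the cycling endothelial cells (log2 fold change −0.78 ± 0.24, adjusted p = 0.0185, and 0.197 without metaphyseal replicate 1 and 0.309 without metaphyseal replicate 2). The inhibitors *Cdkn1c*, at 31.5, 16.5 and 58.3 CPM in the cycling stromal cells and 81, 113 and 92.3 CPM in the cycling endothelial cells, and *Cdkn2c*, at 37.4, 49.4 and 128 CPM in the cycling stromal cells and 157, 186 and 145 CPM in the cycling endothelial cells, were lower in the stromal cells (edgeR adjusted p = 0.00906 and 0.0411). Both calls were lost without metaphyseal replicate 1 (0.0637 and 0.403) and without metaphyseal replicate 2 (0.302 and 0.391). Without each library, 1836 to 3489 genes differed in all. Over all genes 15.5% were higher and 12.6% lower in the stromal cells. Of 28 respiratory chain genes, 18 were higher and 1 lower. Bone matrix followed the gates, with 36 of 43 fibrillar matrix genes and 25 of 30 osteoblast genes higher.

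*Cdh15*, *Ppfibp2*, *Grb14*, *Dnm3os*, *Fat3* and *Ccdc3* had UMIs in the cycling stromal cells and 0 in all cycling endothelial cells, at least 28.1, 42.1, 26.6, 12.6, 14.9 and 28.9-fold higher against a floor of 3 UMIs over the group. The vascular genes *Myct1*, *Sox17*, *Adgrl4*, *Robo4*, *Gimap1* and *Depp1* had 0 UMIs in all 263 members, at least 207, 94.9, 247, 201, 175 and 62.7-fold lower.

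The difference between cycling and non-cycling cells was itself compared between lineages. It differed in 8 of 12349 genes (0.0648%) between stromal cells and chondrocytes and in 12 (0.0972%) between stromal and endothelial cells, by the interaction term of the same edgeR fit, with 972 and 1261 genes at an unadjusted p under 0.05. DESeq2 gave 6 and 46. In none of the lists of CDK inhibitors, ribosome biogenesis, glycolysis and respiratory chain did a gene pass in either comparison. This does not show that the lineages act alike, since the cycling chondrocytes came from 1 library. Over the 14 CDK inhibitors and pocket proteins the median interaction was −0.68 against chondrocytes and −0.09 against endothelial cells, beside 0.11 and 0.23 over all genes tested. Over the 36 ribosome biogenesis genes it was 0.72, with 36 of 36 positive, and 0.43.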

How the data were processed

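The deposited files held raw UMI counts per gene and barcode for 55422 features over the whole barcode whitelist. The authors had trimmed the reads with fastp 0.20 and counted them with STARsolo (STAR 2.7.3a) against mm10, using Gencode M23 genes plus the H2B-GFP transcript, without a cell filter or normalization. Their EmptyDrops step was not used here. A result on 1 receptor gene is not reported here.

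Cells had at least 1500 genes (metaphyseal) or 1000 genes (*Pdgfra-GFP*), at most 15% mitochondrial and 30% ribosomal UMIs. The libraries held 25243314, 22082735 and 91747759 UMIs, and 2382, 2004 and 11242 cells were kept. The members and the gene lists were chosen with earlier results of these data known, and so were the tests and the alternatives. Chondrocytes had at least 5 UMIs of *Acan* and endothelial cells at least 5 of *Pecam1* and *Cdh5*, with the other exclusion gates. UMIs were summed per library and population of at least 10 cells and fitted in 1 model with edgeR 4.0.16 in R 4.3.3 (quasi-likelihood test, TMM, library as a block, Benjamini-Hochberg over the genes tested, threshold 0.05). The 19 genes of the rule were not tested. The cycle lists were left out of the comparison of cycling with non-cycling stromal cells, but not of the interaction terms. All populations of 1 library were taken from 1 cell suspension, so the sums pair, and deviations of same-library sums correlated at 0.20, 0.12 and 0.45. Genes named in the text were the 12 highest and 12 lowest log2 fold changes with the same sign in every library at 20 CPM or more, 6 and 6 for the other comparisons, the 4 most abundant of each list and the inhibitors and receptors, unless the text says that a gene was named after its value was seen. DESeq2 1.42.0, other gates, depths, filters and left-out libraries were alternatives. Cells that Scrublet (scanpy 1.11.5) marked as doublets stayed in, except in an alternative. Shares have exact 95% binomial intervals. Near-empty barcodes (422738, 421964 and 994973, with 2149117, 2189656 and 6645726 UMIs) gave the free RNA. Python 3.11.15 with numpy 2.4.6, scipy 1.17.1 and matplotlib 3.10.9 was used.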

Additional observations from a re-analysis of the deposited data

Results flagged for a closer look

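The following genes changed with the cycle by different amounts in stromal cells and chondrocytes, by the interaction term of the edgeR fit, where a positive log2 value means more of a rise or less of a fall in stromal cells. The cycling chondrocytes came from the *Pdgfra-GFP* library, so these differences rest on 1 library for that population. The other populations were fitted over all 3 libraries, so the interaction can differ from what the printed values give. Cycling against non-cycling values there were, for *Prg4*, the lubricin of joint surfaces, 31.8 against 103 CPM in stromal cells and 26 against 1048 CPM in chondrocytes (interaction 4.16 ± 0.55 (SE), edgeR adjusted p = 0.00116). For *Cenpp*, a kinetochore protein, they were 59.6 against 1.74 CPM in stromal cells and 61.4 against 11.9 CPM in chondrocytes (2.56 ± 0.48 (SE), edgeR adjusted p = 0.0446), and for *Rbp4*, the retinol carrier, 30 against 71.5 CPM in stromal cells and 79.6 against 796 CPM in chondrocytes (2.53 ± 0.44 (SE), edgeR adjusted p = 0.025). *Car12*, a carbonic anhydrase, had 0 UMIs in cycling stromal cells against 12.1 CPM in non-cycling ones. In the 100 cycling chondrocytes it had 127 of 1269623 UMIs, a raw count and not CPM, against 55.6 CPM in non-cycling chondrocytes (−5.39 ± 0.96 (SE), edgeR adjusted p = 0.0361, a value that depends on the prior count). Values of *Npy*, neuropeptide Y, were 36.8 against 116 CPM in stromal cells and 45.7 against 6.70 CPM in chondrocytes (−4.43 ± 0.48 (SE), edgeR adjusted p = 0.000907). Those of *Frmd4b* were 6.28 against 21.9 CPM in stromal cells and 63 against 18.2 CPM in chondrocytes (−3.05 ± 0.47 (SE), edgeR adjusted p = 0.00636). Of 16 alternatives, the call was lost in 6 for *Prg4*, 10 for *Cenpp*, 9 for *Rbp4* and for *Car12*, and 4 for *Npy* and for *Frmd4b*. None of the 6 passed without the block, and without metaphyseal replicate 1 or 2 the adjusted p was 0.41 and 0.257 for *Cenpp*, 0.175 and 0.236 for *Rbp4* and 0.0708 and 0.0963 for *Car12*, while *Frmd4b* was at 0.0963 without metaphyseal replicate 2.

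Against endothelial cells, in all 3 libraries, the same term passed for *Cit*, citron kinase of cytokinesis, with 37.4, 19.8 and 41.7 against 0, 0.442 and 0.238 CPM in stromal cells and 111, 119.6 and 79.2 against 28, 22.7 and 22.6 CPM in endothelial cells (5.11 ± 0.53 (SE), edgeR adjusted p = 4.75e-05). Its level in non-cycling stromal cells was near 0, whereas non-cycling endothelial cells carried it. *Tnfaip8l1* had 3.94, 6.59 and 13 against 0.187, 0.663 and 0.476 CPM in stromal cells and 29.8, 22.7 and 119 against 43.9, 45.8 and 60.5 CPM in endothelial cells (4.90 ± 0.58 (SE), edgeR adjusted p = 0.000214), and *Bok*, a BCL2-family protein, had 100.4, 85.7 and 135 against 19.5, 18.8 and 21 CPM in stromal cells and 318, 336 and 224 against 275, 232 and 210.4 CPM in endothelial cells (2.30 ± 0.38 (SE), edgeR adjusted p = 0.0209). Further interactions of this kind were 2.41 ± 0.47 (SE), edgeR adjusted p = 0.0438 for *Car2*, 1.85 ± 0.31 (SE), edgeR adjusted p = 0.0158 for *Il6st*, the shared receptor chain of IL-6 cytokines, and −1.74 ± 0.31 (SE), edgeR adjusted p = 0.0209 for *Dhrs3*. Without metaphyseal replicate 1 or 2 the edgeR adjusted p was 0.243 and 0.308 for *Bok*, 0.839 and 0.201 for *Car2*, 0.537 and 0.201 for *Il6st* and 0.592 and 0.44 for *Dhrs3*, whereas *Cit* passed in 16 of 16 alternatives and *Tnfaip8l1* in 15.

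The reporter transcript H2B-GFP, which no comparison used, was at 166.8 CPM in the cycling stromal cells of the *Pdgfra-GFP* library and at 0 in both metaphyseal libraries. It was at 128 CPM in non-cycling stromal cells, 19.7 CPM in cycling chondrocytes and 65.5 CPM in near-empty barcodes of that library.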

How the results depend on the processing

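The cycling difference in stromal cells passed in 1453 genes. It passed in 2087 with only the populations compared, 1733 without a filter on low counts, 1709 with a stromal gate of 3 UMIs, 954 with one of 10, 576 in cells thinned to 2000 UMIs, 749 in cells of 5000 to 20000 UMIs, 287 in cells with at most 1 UMI of *Lepr*, *Adipoq*, *Kitl* and *Esm1*, 510 with no replicate block and 431 to 1675 on leaving out a library, the lowest without metaphyseal replicate 1 and the highest without the *Pdgfra-GFP* library. Against chondrocytes 1301 genes passed, 512 when thinned, 786 with no block and 940 to 1011 on leaving out a metaphyseal library. Against endothelial cells 3472 passed, 1475 when thinned and 1836 to 3489 on leaving out a library. The 8 interactions with chondrocytes became 5 with a cycle gate of 3 or a stromal gate of 10 UMIs, 1 when thinned or in the depth window, 159 without a filter on low counts, 0 without the block (640 by edgeR at an unadjusted p under 0.05), 3 with only the populations compared and 3 to 5 on leaving out a metaphyseal library. The 12 with endothelial cells became 19 with a cycle gate of 3, 68 and 5 with stromal gates of 3 and 10, 45 with up to 1 cycle UMI in non-cycling cells, 2 in the depth window, 46 by DESeq2, 122 without the filter, 3 without the block, 70 with only the populations compared and 2 to 414 on leaving out a library, 414 being without the *Pdgfra-GFP* library. The mean cycling share of 4.61% became 5.94% and 3.42% with cycle gates of 3 and 10, 6.14% with a stromal gate of 10 and 3.18% when thinned.

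Some log2 fold changes turned positive in restrictions added after the data were seen. They were 0.087 for *Bglap* and 0.098 for *Bglap2* in cells with osteocalcin under 0.5% of UMIs, and 0.79 for *Chrdl1*, 0.18 for *Clu*, 0.32 for *Igfbp7* and 0.69 for *Lepr* in cells with at most 1 UMI of the *Lepr* group, restrictions that select cells on *Bglap*, *Bglap2* and *Lepr* themselves. None of these 6 passed there. Otherwise the cause was not tested. Of 56 genes with a call in the cycling comparison that the text covers, 12 were called in every alternative, and 30, 22 and 4 lost the call without metaphyseal replicate 1, metaphyseal replicate 2 and the *Pdgfra-GFP* library. Size factors moved the split to 629 higher and 836 lower, no filter to 477 and 1256, DESeq2 to 653 and 663, and thinning to 201 and 375. The comparison with chondrocytes could not be fitted without the *Pdgfra-GFP* library or with only the populations compared. The metaphyseal sums held 30 and 17 members.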
